A study of Mus musculus with 4 samples.

Results

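RING1B covered most of the tiled sequence in 372 regions of the mouse genome that carried high signal for both RING1B and the histone mark H3K27me3 in forelimb buds at E10.5. This wording takes Cy5 as the precipitated DNA, against the labels, under which a high value would be depletion. These regions were chosen from the measured values by 4 conditions. A region had to hold at least 10 RING1B windows, each the mean of 3 neighbouring probes, its highest RING1B window had to reach 2.7 and its highest H3K27me3 window 2.85 on the log2 scale (6.5-fold and 7.21-fold), and at least 50% of its RING1B windows had to reach 2.7. They are called broad regions here. They were 372 of 1373 regions over both thresholds (shared regions), of 13385 autosomal regions with at least 10 RING1B windows, and of 24078 autosomal tiled regions in all, so that 10.3% of the regions long enough to be judged were shared and 2.78% were broad. The remaining 1001 shared regions are called the other shared regions. Because the RING1B values made the choice, RING1B height and breadth of the broad regions are given as descriptions, with no test.

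RING1B is the ring-finger subunit of Polycomb repressive complex 1 that transfers ubiquitin to histone H2A. H3K27me3 is the trimethylated form of lysine 27 of histone H3, set by Polycomb repressive complex 2. Some forms of complex 1 hold a chromobox protein that binds H3K27me3, and complex 2 can in turn bind ubiquitylated H2A, so both are often found over the same sequence. In embryos the pair is best known from the promoters of developmental regulators that are silent, or poised for use, in a given tissue, and from clusters of such genes where it spreads over long stretches.

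The chromatin came from whole forelimb buds of wild type BDF1 mouse embryos at stage E10.5. Buds were pooled, fixed for 20 min in 1% formaldehyde, and precipitated with antibodies against RING1B (clone #3) or H3K27me3. Precipitated and input DNA passed through 2 rounds of T7 amplification and were hybridised together on 2-colour arrays. The samples analysed here held no mutant and no other tissue. A whole bud mixes cell types, and in a mixture broad signal in few cells and weaker signal in many cannot be told apart.

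The 4 arrays were 1 RING1B and 1 H3K27me3 array on each of 2 designs. Chromosome 9 held broad regions of both designs, and every other autosome held those of 1 design only. The designs shared 0 probe names. Each locus was therefore measured on 1 array per antibody, and no replicate, test across samples or p-value exists for any value below. Errors of single windows are standard deviations (SD) over the 3 probes of the window, and errors of groups of regions are quartiles over regions, and neither covers variation between embryos or precipitations. The arrays carried 237195 and 237185 probes with a median spacing of 178 and 177 bp, of which 83.3% to 85.9% were kept per array. Design 1 held 162 broad regions and design 2 held 210. Every value is the log2 ratio of Cy5 over Cy3, minus the array's median. This direction opposes the labels, which give Cy3 to the precipitated DNA and Cy5 to the input. Under the labelled dyes each sign would be the opposite, and a high value would be depletion. In the labelled direction 0 of the 372 regions reached either threshold in any window, and the lowest windows lay at -1.69 for RING1B and -1.80 for H3K27me3. The regions were chosen for high Cy5 over Cy3, so this count describes the choice and does not tell which dye held the precipitate.

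The single channels show which dye set these ratios. On the RING1B arrays the median Cy5 signal of broad regions was 13.56 on design 1 and 13.43 on design 2 on the log2 scale, against 9.75 and 9.85 over all regions long enough to be judged. Cy3 hardly moved, with medians of 9.84 and 9.90 in broad regions and 9.83 and 9.93 over all. The H3K27me3 arrays gave the same picture, with Cy5 at 14.98 and 14.17 in broad regions against 10.10 and 10.15 over all, while the Cy3 medians of these groups lay between 10.32 and 10.44. The high ratios of broad regions thus came with high Cy5, not with low Cy3. The regions were chosen on ratios of these same signals, so this describes the chosen regions and does not tell which dye held the precipitate. Only 3 spots per channel were saturated, all on 1 array, the H3K27me3 array of design 2.

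Broad regions formed the upper part of a continuous range of RING1B shares, with a rise in number at its top. Among the 1373 shared regions, 267 had under 10% of their RING1B windows over 2.7 and 282 had from 10% to under 20%. The number per step of 10 percentage points was lower in the later steps, with 59 in each of the steps between 60% and 80% and 44 between 80% and 90%. It was higher again in the last step, where 133 regions had at least 90% of their windows over. In 65 regions, 20 on design 1 and 45 on design 2, every RING1B window was over. The median share was 77.8% (quartiles 61.5% and 95.1%) in broad regions and 17.6% in the other shared regions. The condition on H3K27me3 removed nothing: 372 regions met the RING1B conditions whatever their H3K27me3. With other scalings it removed some, leaving 219 of 247 with loess and 190 of 192 with normexp.

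**Figure D1:**
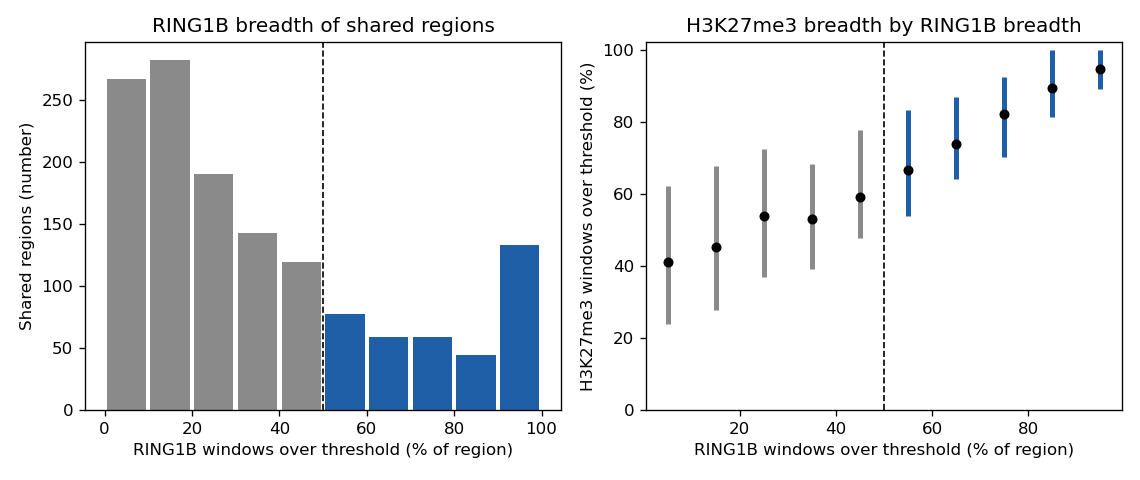
Left, number of shared regions by the share of their RING1B windows over threshold (x axis, percent of windows, steps of 10); right, the median share of H3K27me3 windows over threshold in the same steps (points) with quartiles over regions (bars). Blue marks broad regions and grey the other shared regions, with the 50% limit dashed; the last step holds 133 regions, and the H3K27me3 median goes from 41.2% in the first step to 94.7% in the last.

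The limit of 50% runs through regions that look alike. Just inside it, at 50%, lay chr15:55132233-55139740, chr2:6045151-6047692 and chr5:66427546-66436148, with 11 of 22, 6 of 12 and 18 of 36 RING1B windows over. Just outside it lay chr14:31423715-31432551 at 49.0%, chr3:118420379-118429209 at 48.8% and chr9:123525222-123533061 at 48.6%. The RING1B top windows of the 3 inside were 3.97, 3.37 and 5.57, and those of the 3 outside were 5.53, 3.88 and 6.14. Height does not separate these 6 regions, and a region with a high but narrow summit can lie outside.

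The members with the widest and highest RING1B coverage had RING1B over threshold from end to end. The highest mean among regions with every window over was found at chr19:43660328-43668008, where RING1B averaged 5.82 over 7681 bp and all 44 windows were over. Its RING1B top window was 7.03 ± 0.42 (SD over 3 probes) and its lowest window 4.14. H3K27me3 reached 5.53 ± 0.38 there and was over its threshold in 43 of 44 windows. The next in rank were chr14:47587073-47594859 with a RING1B mean of 5.80, chr13:95971127-95978757 with 5.69, chr14:62197259-62204823 with 5.61 and chr5:67375987-67383725 with 5.59. H3K27me3 was over threshold in 97.3%, 90.9%, 94.9% and 100% of the windows of these 4 regions. The 12 members highest in this order had RING1B means from 5.25 to 5.82, and their H3K27me3 shares ran from 82.4% at chr12:119285094-119294149 to 100%. Of these 12, 9 lay on design 2 and 3 on design 1.

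The highest single RING1B windows were not always in the widest members. The highest, 7.39 ± 0.66, was in chr3:34836314-34844148, where all 35 RING1B windows and all 36 H3K27me3 windows were over. At chr11:85700937-85708693 the top was nearly as high, 7.32 ± 0.47, but 34 of 43 RING1B windows were over and the lowest fell to 0.78. At chr13:99448976-99456871 the top was 7.20 ± 0.14 with 24 of 39 windows over. These 3 regions cover shares from 61.5% to 100% at tops that differ by less than 0.2.

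The H3K27me3 tops ranked other members first. The highest H3K27me3 window of a broad region, 6.47 ± 0.36, lay in chr2:145908065-145916007, where RING1B covered 75.7% and H3K27me3 86.8% of the windows. It was followed by 6.42 ± 0.28 in chr9:24522279-24529866, with every window over for both antibodies. At chr7:101690600-101694777 H3K27me3 reached 6.41 ± 0.31 and covered all 21 windows, while RING1B peaked at 4.85 ± 0.41 and covered 16 of 21. All 6 members with the highest H3K27me3 tops lay on design 1, whose H3K27me3 array had the wider spread of ratios (SD 1.91, against 1.68 on design 2), and the ranks of single tops across designs carry that difference.

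Some members were far longer than the usual tiled region. The median broad region spanned 7743 bp (quartiles 6106 and 7943) and 39 probes, close to the 7655 bp of the other shared regions, since the array design sets these lengths. The longest was chr2:74457946-74485669, 27724 bp with 138 RING1B windows, of which 135 were over. RING1B averaged 4.81 and H3K27me3 4.58 across it, and both were under threshold together in 2 narrow dips. The lowest windows were 1.77 and 1.97 in one dip, and 2.43 and 2.10 in the other. The longest unbroken RING1B stretch, 17872 bp, filled chr15:102789619-102807549, where all 90 windows were over and the lowest was 4.01. H3K27me3 was over in 87 of 89 windows of this region. At chr2:105464323-105479744 both antibodies were over in every window for 15367 bp. In both of these regions RING1B stayed over threshold up to the last probe.

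**Figure D2:**
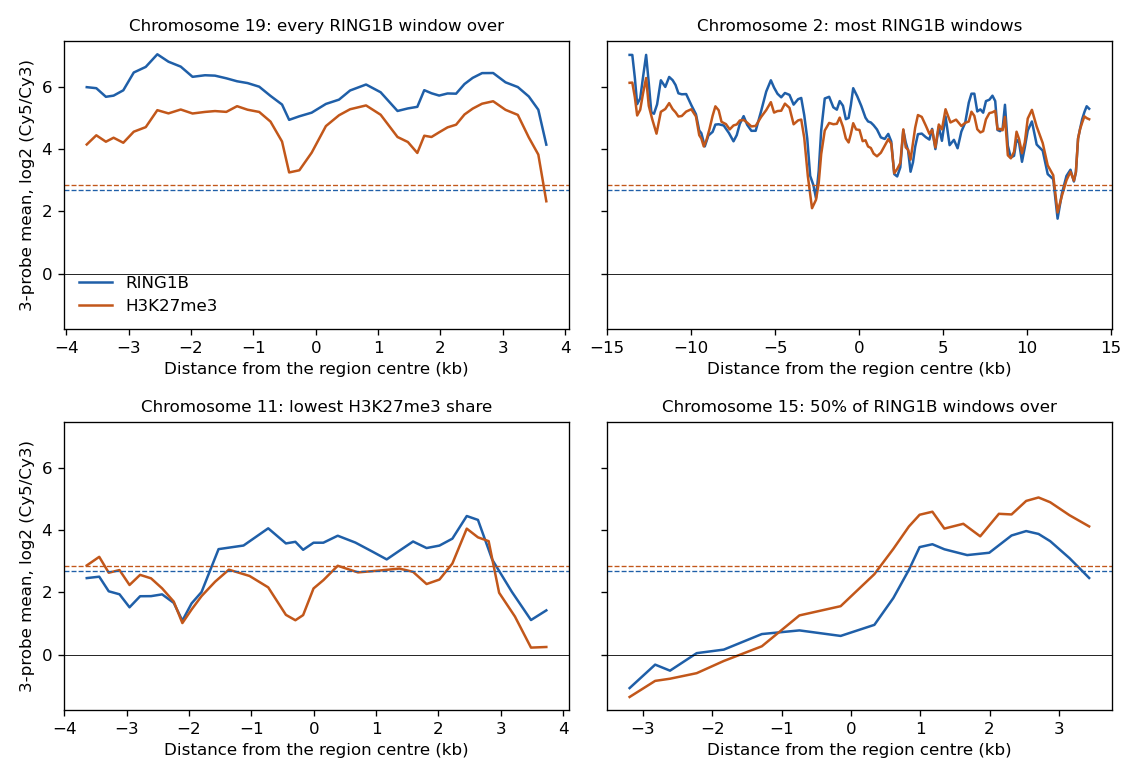
Windows of 3 probes along 4 broad regions, as log2 of Cy5 over Cy3 (y axis) against distance from the region centre in kb (x axis), with RING1B in blue, H3K27me3 in orange and each threshold dashed in its colour. The chromosome 19 region is over the RING1B threshold from end to end, the 27724 bp region on chromosome 2 shows 2 dips shared by both antibodies, the chromosome 11 region has RING1B over where H3K27me3 lies near or under its threshold, and the chromosome 15 region has both antibodies over on 1 side only.

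H3K27me3 breadth was not part of the rule and was high in nearly all broad regions. The median share of H3K27me3 windows over threshold was 86.9% (quartiles 69.7% and 97.2%) in the 372 broad regions and 50% (31.6% and 68.6%) in the 1001 other shared regions. The share reached 50% in 352 of 372 broad regions (94.6%), against 501 of 1001 other shared regions (50%) and 9.29% of all 13385 regions. H3K27me3 was over in every window of 77 broad regions, 62 on design 1 and 15 on design 2, against 22 of the other shared regions and 0.934% of all. The median shares of broad and other shared regions were 94.9% and 60% on design 1, and 77.2% and 41.0% on design 2. The 36.9 percentage points between the pooled medians were 34.9 within design 1 and 36.2 within design 2. They narrowed to 28.9 with normexp background correction and 18.1 with loess, keeping their sign. The medians themselves were 53.1% and 24.2% with normexp, and 31.3% and 13.2% with loess.

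H3K27me3 breadth went with RING1B breadth along the whole range and not only across the 50% limit. Its median rose in steps of RING1B share from 41.2% where RING1B covered under 10% of windows to 59.1% between 40% and 50%. Within the broad regions it went on from 66.7% in the lowest step to 73.7%, 82.1%, 89.5% and 94.7% in the highest. A single step down, from 54.0% to 52.9%, interrupts this order among the other shared regions. On design 1 the medians of the 5 broad steps were 84.8% to 100%, and on design 2 they were 60.9% to 90.9%, so the level differs by array and the order is the same. Within a design the RING1B and H3K27me3 arrays carry the same probes, and this relation over regions is a description only.

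Broad regions were also higher for RING1B, so the comparison was repeated at like height. Between RING1B tops of 4 and 4.5 the median H3K27me3 share was 73.7% in 41 broad and 51.9% in 145 other shared regions. Between 5 and 5.5 it was 83.0% in 60 and 48.2% in 40, and from 6 to 8 it was 90.9% in 131 and 62.8% in 12. The share was higher in broad regions in all 7 bins of RING1B top, and in each bin on both designs, though the lowest bin held 3 broad regions and the highest 12 others. The H3K27me3 top differed less. Its median was 5.30 in broad and 4.76 in other shared regions, a gap of 0.54, and when both sets were limited to the middle 50% of the broad regions' RING1B tops the gap was 0.06 for height while it was 29.9 percentage points for breadth. The gap in height pools 2 designs with different H3K27me3 levels. Within design 2 the median H3K27me3 tops of broad and other regions were 4.56 and 4.64 at RING1B tops of 4 to 4.5, 4.95 and 4.60 at 4.5 to 5, and 5.27 and 4.97 at 5.5 to 6. Within design 1 they were 5.27 and 5.16, 5.54 and 5.47, and 5.58 and 5.54 in the same bins. At 3.5 to 4 they were 5.68 and 5.19 on design 1, and 4.95 and 4.56 on design 2. At 5 to 5.5 they were 5.66 and 5.46, and 4.99 and 4.79. From 6 to 8 they were 5.87 and 5.80, and 5.30 and 5.26. The lowest bin held 2 and 1 broad regions, with 4.84 against 5.04 on design 1 and 5.10 against 4.28 on design 2. The gap in height thus varied by bin.

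**Figure D3:**
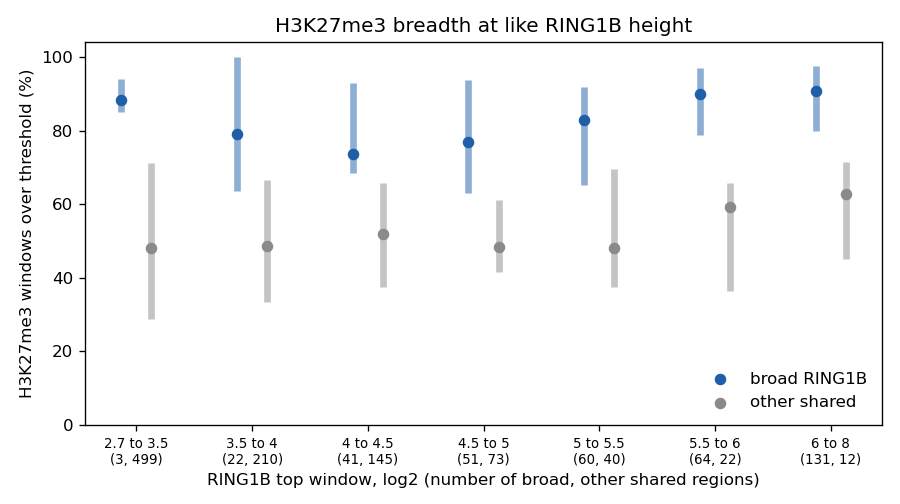
Median share of H3K27me3 windows over threshold (y axis, percent) for broad regions (blue) and other shared regions (grey) in 7 bins of the RING1B top window (x axis, log2, with the number of broad and other regions in parentheses). Bars are quartiles over regions; the blue point lies above the grey one in each bin, for example 83.0% against 48.2% between 5 and 5.5.

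Window by window, and with the median-centred ratios used here, most windows of broad regions were over both thresholds at once. Of 12400 windows with probes kept on both arrays, 74% were over for both, 6.15% for RING1B only, 8.38% for H3K27me3 only and 11.5% for neither. The share over for both was 79.1% on design 1 and 69.6% on design 2. Windows were not counted with other scalings, where the median H3K27me3 share of a broad region was lower, at 53.1% with normexp and 31.3% with loess. In the other shared regions 19.1% of 29623 windows were over for both and 30.3% for H3K27me3 only. A RING1B window over threshold had H3K27me3 over as well in 92.3% of cases in broad and 93.0% in other shared regions, nearly the same proportion. The reverse differed: given H3K27me3 over threshold, RING1B was over in 89.8% of windows in broad and 38.6% in other shared regions. The rule asks for RING1B coverage, so the larger share of windows over both thresholds and the last difference describe the choice of regions. Neighbouring windows share probes and are not independent.

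Around the RING1B summit the signal of broad regions stayed high up to the reach of the probes. The median RING1B signal was 5.60 within 250 bp of the summit, 3.89 at 1 to 1.5 kb and 3.25 at 3 to 4 kb, while in the other shared regions it fell from 3.51 to 1.73 and 0.32. Over the first 1.5 kb the falls were thus of like size in both sets, and they differed farther out. The RING1B levels themselves follow from the rule. H3K27me3 around the same summits went from 5.13 to 3.84 and then stayed level, at 3.95 at 3 to 4 kb. In the other shared regions H3K27me3 fell from 4.56 to 3.07 and 2.01. Between 1 and 4 kb from the summit the H3K27me3 medians of broad regions stayed within 3.84 to 3.98. This is a median over regions, and in single regions H3K27me3 was often interrupted, with 1 stretch over threshold in 127 of 372. The RING1B and H3K27me3 tops lay over 2000 bp apart in 105 of 372 broad regions (28.2%) and in 77 of 1001 others (7.69%). They fell on the same place in 118 broad regions (31.7%) and in 397 others (39.7%), a smaller contrast. The rule chose regions with many high RING1B windows, among which the top can fall, and its part in these distances was not tested.

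**Figure D4:**
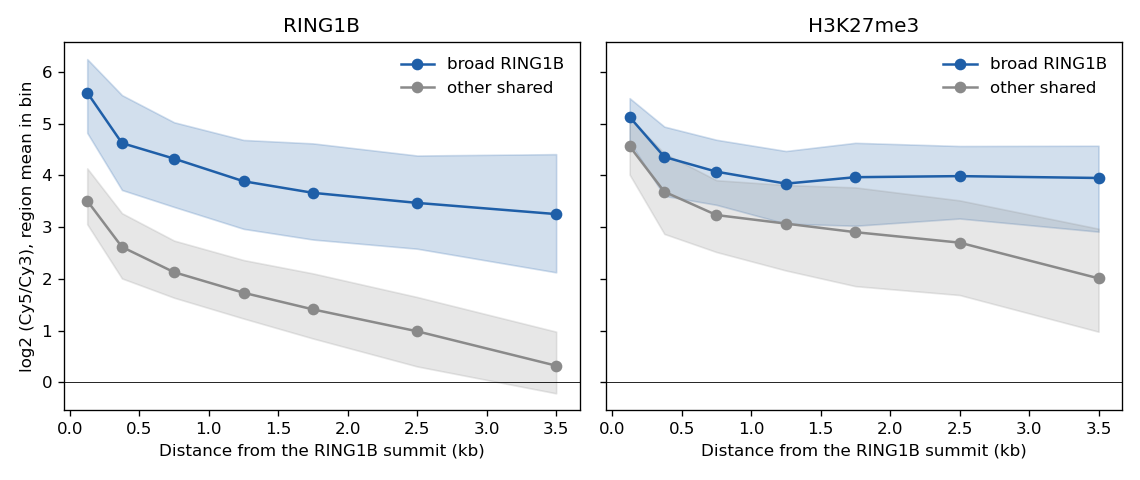
Median signal (log2 of Cy5 over Cy3) against distance from the RING1B summit in kb, for RING1B (left) and H3K27me3 (right), in broad regions (blue) and other shared regions (grey), with quartiles over regions shaded. At 3 to 4 kb RING1B medians are 3.25 and 0.32, and H3K27me3 medians are 3.95 and 2.01.

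Many broad regions ran off the tiled sequence. Both outermost RING1B windows were over threshold in 153 of 372 broad regions (41.1%), against 1.16% of all regions long enough to be judged, and at least 1 was over in 312. Since the rule used RING1B windows, this count describes the choice. For H3K27me3, which was not used for breadth, both outermost windows were over in 222 broad regions (59.7%), against 101 other shared regions (10.1%) and 2.88% of all. In the outermost 250 bp the median signal was 3.18 for RING1B and 3.75 for H3K27me3 in broad regions, and 0.79 and 2.13 in others. The true extent of these regions beyond the last probe was not measured. Longest stretches over threshold are therefore lower bounds where they touch an end, and their medians were 4225 bp for RING1B and 4388 bp for H3K27me3 in broad regions, against 1087 bp and 2260 bp in others.

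Inside the regions the coverage was often interrupted. RING1B windows over threshold formed 1 unbroken stretch in 159 broad regions (42.7%), 2 in 153 and 3 or more in 60. Of the 1001 other shared regions 642 (64.1%) had 1 stretch, 265 had 2 and 94 had 3 or more. The stretches were counted on the RING1B windows that the rule used, so this contrast describes the choice. It also varied by array: 51 of 162 broad regions (31.5%) had 1 stretch on design 1 and 108 of 210 (51.4%) on design 2. In 211 regions the probes kept on both arrays held a gap between stretches. At the lowest RING1B window of these gaps the median was 2.00 for RING1B and 1.96 for H3K27me3, which was over its own threshold there in 56 of the 211. The other way round, 243 regions had a dip between H3K27me3 stretches. At the lowest H3K27me3 window of these dips RING1B had quartiles of 1.65 and 3.04 and was over threshold in 84. These counts differed by design. H3K27me3 was over at the lowest RING1B window of the gaps in 39 of 110 regions on design 1 and in 17 of 101 on design 2. RING1B was over at the lowest H3K27me3 window of the dips in 8 of 78 regions (10.3%) on design 1 and in 76 of 165 (46.1%) on design 2. The lowest RING1B value in any of the 211 gaps was 0.53, above the array's median of 0. This covers gaps between stretches only. Over whole broad regions the lowest RING1B window was above 0 in 317 of 372, and the lowest of all was -1.69.

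Within a region the profiles of both antibodies followed each other. The correlation over windows within a region had a median r of 0.85 in broad regions (quartiles 0.71 and 0.92, 10 to 138 RING1B windows a region) and 0.83 in other shared regions. It was under 0.5 in 28 broad regions (7.53%) and 73 others (7.29%), and under 0 in 0 and 3. Both profiles come from the same probes, with the same base composition, so these values are descriptions. The lowest r, 0.21, was found at chr19:37757592-37765520, where every window was over for both antibodies. The next lowest, 0.27, was at chr13:31560291-31568297, where RING1B covered 59.0% and H3K27me3 75.6% of windows. These regions were chosen after their values were seen.

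A small set of broad regions had RING1B over threshold along stretches with little H3K27me3 over its own. The H3K27me3 share was under 50% in 20 of 372, of which 19 lay on design 2. The lowest, 19.4%, was at chr11:96154565-96162357, with 7 of 36 H3K27me3 windows over against 20 of 35 for RING1B, and tops of 4.04 ± 0.51 and 4.45 ± 0.39. Next came chr14:20773815-20783658 with 20% and tops of 3.26 ± 0.14 for H3K27me3 and 4.13 ± 0.43 for RING1B, and chr11:96127952-96137295 with 26.7%. At chr13:115577821-115585099 the H3K27me3 share was 28.6% and at chr10:80328878-80335652 it was 30.8%, with within-region r of 0.97 and 0.99. In these last regions the H3K27me3 profile had the same shape as that of RING1B and lay lower. The single such region on design 1, chr6:52085480-52099741, held 45 of 76 RING1B and 27 of 74 H3K27me3 windows over.

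The opposite members had full H3K27me3 and RING1B near the limit. The largest excess of H3K27me3 in region mean was at chr8:97582987-97585591, with 4.92 against 2.64 for RING1B, followed by chr2:163860168-163863444 with 4.84 against 2.78. The largest excess of RING1B was at chr14:47587073-47594859, with 5.80 against 4.28. These regions were also chosen after their values were seen. Over all 372 the median difference of region means, RING1B minus H3K27me3, was -0.14, at -0.49 on design 1 and 0.21 on design 2. The sign has no settled direction: it was positive, at 0.54, with each array's ratios divided by their SD, and at 0.58 and 0.92 with normexp and loess. Which antibody is higher in a region can be read only within 1 design and 1 scaling.

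A few broad regions stood in series. Joining broad regions with at most 20 kb between neighbours gave 12 runs that held 33 regions, and 339 regions stood alone. The largest run, chr15:102743943-102844504, spanned 101 kb and all 7 tiled regions in it were broad, with 277 of 294 RING1B windows over. Its first 4 regions had every RING1B window over and H3K27me3 shares of 94.9%, 90.9%, 92.3% and 97.8%. Towards the other end RING1B covered 91.2%, 93.8% and 58.1% and H3K27me3 77.1%, 42.9% and 43.8%. RING1B region means fell along this run from between 5.07 and 5.18 in the first 4 to 3.73, 3.49 and 2.93, and H3K27me3 means from between 4.09 and 4.35 to 3.54, 2.67 and 2.59.

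The second run, chr11:96076182-96162357, had 4 broad regions of 4 tiled over 86.2 kb and showed the same kind of slope. RING1B shares along it were 100%, 92.1%, 51.1% and 57.1%. H3K27me3 shares were 88.1%, 46.8%, 26.7% and 19.4%, so that the lowest H3K27me3 share of all broad regions closed a run that opened with nearly full coverage. In this run and the one before, H3K27me3 coverage was lost over more of the run than RING1B coverage was. The region means did not show this contrast. Those of RING1B lay between 5.18 and 2.93 in the run before and between 4.59 and 2.78 in this one. Those of H3K27me3 lay between 4.35 and 2.59, and between 3.68 and 2.17, the narrower range in each run. Coverage depends on the level at which each antibody starts and on its threshold. Both runs lie on design 2, where the H3K27me3 ratios had the smaller spread, and the part of the array in the coverage was not tested.

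The 4 other large runs were more even or broken. At chr6:52154568-52195944, 3 regions had RING1B shares of 94.8%, 100% and 93.3% and H3K27me3 shares of 92.2%, 97.6% and 93.0%. At chr2:74457946-74501023, 2 regions with 200 RING1B windows over between them had shares of 97.8% and 94.2%. The 3 regions of chr8:123965209-124016245 were uneven, with RING1B shares of 94.6%, 52.8% and 76.7% and H3K27me3 shares of 91.9%, 53.7% and 100%. At chr2:18584856-18619330 the shares were 71.4% and 89.7% for RING1B and 63.5% and 86.8% for H3K27me3. In none of these 4 runs did H3K27me3 fall below 50% in any region.

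Broad regions had neighbours over the RING1B threshold more often than the other shared regions did. Another broad region lay within 20 kb of 33 of 372 (8.87%). Of the 1001 other shared regions, 49 (4.90%) had another of their own set that near. Each share counts neighbours of a region's own set, and the sets differ in size, so the 2 shares are not like measures. The neighbours 5 to 20 kb away were themselves broad in 36.6% of cases beside broad regions and 2.97% beside others. The share was 1.94% over the 19196 tiled regions with windows for both antibodies. It was 2.78% over the 13385 with 10 or more RING1B windows, a nearer match, since these neighbours had medians of 30 and 25 windows. Neighbours at this distance were over the RING1B threshold in 45.1% of 71 cases beside broad regions and in 15.3% of 202 cases beside others, against 7.44% of all 19196 tiled regions with windows for both antibodies. For H3K27me3 these 2 shares were 15.8% and 21.8%, and the plot of neighbours gives both antibodies by distance. Beyond 100 kb the RING1B shares were 12.8% and 11.4%, close to each other. A pair of broad neighbours counts from both sides.

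Broad regions lay on all 19 autosomes in unequal proportion. Chromosome 2 held the most, 37 of 119 shared regions, and chromosome 11 held 34 of 116. The share of shared regions that were broad was highest on chromosome 13, at 41.7% (25 of 60), and on chromosome 12, at 34.2%. It was lowest on chromosome 17, at 17.0%, and on chromosome 7, at 17.1% (12 of 70). Broad regions on chromosomes 10 to 19 came from design 2 and those on chromosomes 1 to 8 from design 1, so differences across that line cannot be told apart from those between arrays. By length, broad regions made up 48.1% of 27 shared regions under 3 kb, and 15.5% to 31.4% in longer classes.

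RING1B coverage was also read on probes left out of the choice. With every other kept probe used for the rule, 400 regions were broad by the odd probes and their median RING1B share on the even probes was 77.1%. There it reached 50% in 347 of 400 (86.8%). With the odd and even probes exchanged, 405 regions were broad and 348 of them (85.9%) reached 50% on the held-out probes. Other shared regions chosen in the same way had held-out medians of 20.0% and 21.4%. Both sets of probes come from the same hybridisation, so this measures agreement between probes on 1 array and not between samples. The held-out probes lay between those used, at a median probe spacing of 178 and 177 bp. High held-out shares were therefore likely beforehand and are no separate evidence for the choice.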

How the data were processed

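Feature extraction was done by the authors with Agilent's software, version 10.1.1.1, per the file headers. The deposited processed signals are linear intensity values from which background was subtracted, with detrending and a linear dye normalisation, per the file headers. The deposited log10 ratios were made from these signals, as Cy5 over Cy3. The authors also deposited tables of uncentred log2 ratios. Depending on the array, 99.7% to 99.9% of these differed by at most 0.001 from the log10 ratios converted to log2. No source used here gives the build of the coordinates, so no gene names or sequences were attached and positions are those of the files.

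Only non-control probes that passed the scanner software's test against background in Cy3 and in Cy5 were kept. Log2 ratios of Cy5 over Cy3 were centred on the median of kept probes per array, with no loess or quantile step. Probes on chromosomes 1 to 19 with starts at most 1000 bp apart formed a region, and windows were means of 3 neighbouring kept probes. Region means are over kept probes. A share is the percent of a region's windows at or over the antibody's threshold.

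The regions and lists were chosen with earlier results of these data known. Regions were named by fixed ranks: the 12 highest RING1B shares (ties by mean), the 6 highest tops per antibody, the 6 lowest H3K27me3 shares, the 6 with most windows, the 3 on either side of the 50% limit and the 6 largest runs. The text prints those that show the range and marks regions chosen otherwise. Alternatives covered normexp (offset 50) and loess in limma 3.58.1 under R 4.3.3, filters, thresholds, window sizes, the probe gap and each design alone. The steps were run in Python 3.11.15 and tested on simulated regions. With 1 array per antibody and locus, no test was made.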

Additional observations from a re-analysis of the deposited data

How the results depend on the processing

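No paired analysis was possible because the numbers 1 and 2 in the titles are 2 array designs with no shared probe, and there are no replicates to leave out or block. The number of broad regions fell from 372 to 190 with normexp and 219 with loess, all of them among the 372, and was 162 and 210 on the designs alone. The other 16 settings gave 277 to 545.

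The gap in median H3K27me3 share, broad minus other shared regions, was positive in each setting. From 36.9 percentage points it moved to 28.9 with normexp, 18.1 with loess, 29.6 with a probe gap of 500 bp and 29.9 within the middle 50% of RING1B tops, an alternative added after the data were seen. The gap in H3K27me3 top, 0.54, moved to 0.38 with normexp, 0.33 with loess, 0.64 with a RING1B threshold of 2.2, 0.69 with single probes, 0.69 on design 2 and 0.06 within the middle 50% of RING1B tops.

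The median difference RING1B minus H3K27me3, -0.14, changed sign to 0.58 with normexp, 0.92 with loess, 0.0095 with a RING1B share of 60%, 0.064 with a RING1B threshold of 3.2, 0.21 on design 2 and 0.54 with ratios divided by the array SD. It moved to -0.35 without the filter on dim probes, -0.32 with probes well above background in either channel, -0.34 with a share of 40%, -0.47 with a threshold of 2.2 and -0.49 on design 1. The cause was not tested. Probes near background limit low ratios: a median of 96.4% of probes were kept in broad and 91.9% in other shared regions.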
